A study of Solanum lycopersicum with 18 samples.

Results

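The tomato root expresses many genes of the *Aux/IAA* family, and 10 of them are described here: *SlIAA8*, *SlIAA9*, *SlIAA16*, *SlIAA27*, LOC101055542, LOC101055545, LOC101055546, LOC101055549, LOC101055552 and LOC101055553. They are the 10 listed identifiers, out of 29922 genes measured. No measured value entered that rule, although the list was drawn up with earlier results of these data known. RefSeq (assembly SLM_r2.1), matched by transcript accession, gives the 6 LOC identifiers the symbols IAA2 (LOC101055542), IAA12 (LOC101055545), IAA13 (LOC101055546), IAA19 (LOC101055549), IAA26 (LOC101055552) and IAA29 (LOC101055553), which are used here. RefSeq lists 18 genes with an IAA symbol, and these 10 are among them. The gene that the files call IAA8 is RefSeq IAA15 and is a different gene from *SlIAA8*.

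Roots of 7-day-old seedlings were cut into meristem, elongation zone and differentiation zone and read by RNA-Seq, for *dgt* plants (genotype dgt1-1) and WT plants, all of cultivar Ailsa Craig and grown on the same medium without treatment. The 18 libraries make 6 groups of 3 biological replicates, and each replicate pooled about 50 to 100 dissected root portions. The zones were cut by anatomical landmarks, so a portion holds every cell type of that zone, and the reads were aligned to transcripts of another cultivar. In such bulk samples, fewer cells of a type and less RNA per cell cannot be told apart.

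Aux/IAA proteins are short-lived repressors of the auxin response. They bind auxin response factors (ARFs) on the promoters of auxin-responsive genes and hold them inactive. Auxin joins them to TIR1/AFB receptors, which leads to their breakdown and frees the ARFs. Many *Aux/IAA* genes are themselves quickly induced by auxin, which closes a feedback loop, and in roots the family acts in gravitropism, elongation and lateral root formation. DGT is a cyclophilin, and *dgt* plants respond weakly to auxin and form no lateral roots.

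Library totals of expected counts ran between 17919441 and 29133603 (median 19874284). WT meristem replicate 2, the deepest library, stood apart from its group: its chi-square per degree of freedom against the other WT meristem libraries was 134 and 127, against 4.78 to 41.4 for the other 16 replicate pairs. The zone labels matched the sums of the marker lists. The 7 cell division genes summed to 499 to 745 TPM (a transcript level scaled for length and library total) in the meristem libraries and 82.4 to 159 TPM elsewhere. The 19 expansin and XTH wall genes summed to 1708 to 2054 TPM in the elongation zone and 544 to 1246 TPM elsewhere. The 8 uptake and peroxidase genes summed to 1742 to 2776 TPM in the differentiation zone and 389 to 1296 TPM elsewhere. Single genes did not all follow their list. From the WT meristem to the elongation zone, 14 of 18 tested wall genes rose and 4 fell, where 34.5% of all tested genes rose and 33.5% fell. Over the next WT step 11 fell and 5 rose, where 20.2% of all tested genes fell and 30.2% rose. In the WT differentiation zone against the meristem, 6 of 7 tested uptake and peroxidase genes were higher and 1, NRT2.2, was lower. Of all tested genes, 37.6% were higher there and 34.1% lower. No gene of the files is named DGT, and RefSeq gives none that symbol or synonym. The gene was not searched for under other names, so the genotype labels were not checked through it. TPM values compare genes per transcript length. Tests used counts scaled by TMM, and the scales differ: the median gene was 0.31 higher in *dgt* on the log2(TPM + 0.1) scale in the elongation zone, 0.11 in the meristem and 0.12 in the differentiation zone, against 0.0075, -0.039 and 0.0066 in the edgeR fits.

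The genes spanned a wide range of levels. *SlIAA9* averaged 381 TPM and *SlIAA16* 343 TPM over all libraries, IAA26 77.0 TPM, and IAA29 at the other end 1.36 TPM. *SlIAA9* and *SlIAA16* together made up 69.1% of the summed mean TPM of the 10 genes in the *dgt* meristem and 81.4% in the WT meristem. They made up 77.0% in the *dgt* elongation zone and 82.6% in WT, and 74.8% in the *dgt* differentiation zone and 73.4% in WT. Part of the reads of 9 of the genes were divided among similar transcripts, since their expected counts were not whole, to within 0.001, in 11 to 18 of the 18 libraries. The counts of IAA29 were whole in every library.

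**Figure D1:**
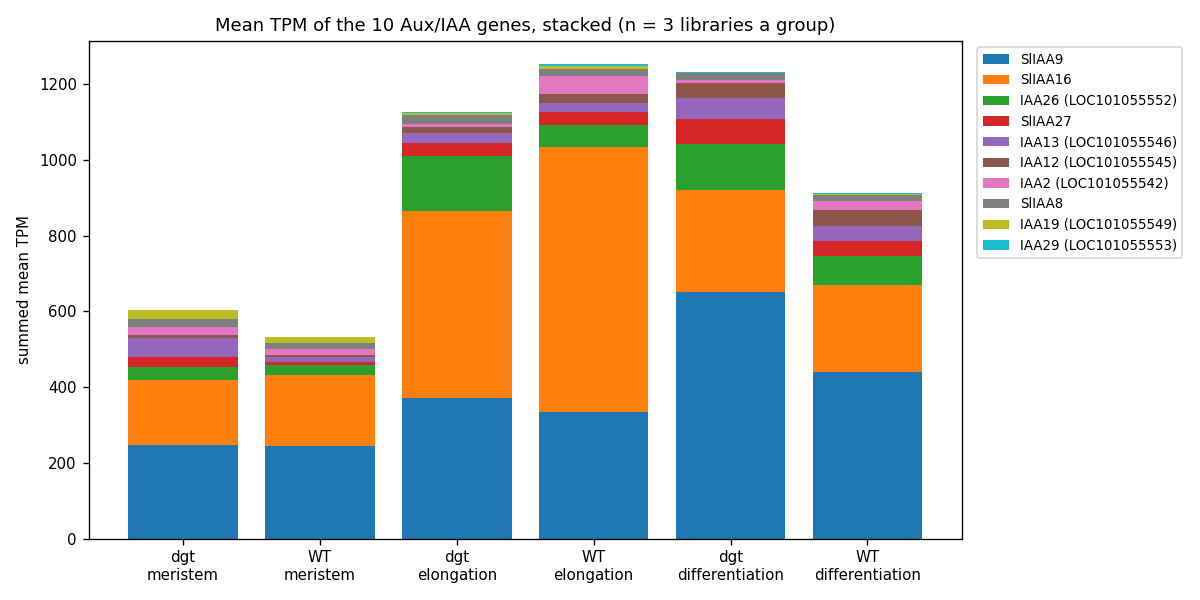
Mean TPM of each gene stacked for the 6 groups (3 libraries each, *dgt* left of WT in each zone; y axis, summed mean TPM). *SlIAA9* and *SlIAA16* fill 69.1% to 82.6% of each bar.

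The first comparison asked how *dgt* roots differed from WT in each zone. In the meristem, 2 of the 9 genes tested rose in *dgt*, *SlIAA27* and IAA13, where 14.5% of all tested genes rose and 8.31% fell. In the elongation zone, IAA26 rose (background 14.9%) and 5 fell, *SlIAA16*, IAA2, IAA12, IAA19 and IAA29 (background 12.2%). In the differentiation zone, *SlIAA9*, *SlIAA27* and IAA26 rose (background 16.1%) and IAA2 and IAA29 fell (background 13.4%). Genes were called at a Benjamini-Hochberg adjusted p under 0.05 with edgeR's quasi-likelihood test, over all 19926, 20079 and 20547 genes tested in the 3 zones. Over 2-fold, 2 rose in the meristem (background 10.1% higher and 2.72% lower), 1 rose in the elongation zone (background 9.68%) and 2 fell there (background 4.32%), and 2 fell in the differentiation zone (background 8.54% higher and 4.47% lower). Without 1 library, 2 of these rises could drop under 2-fold. The lowest log2 fold change was then 0.98 for *SlIAA27* in the meristem and 0.94 for IAA26 in the elongation zone. The median log2 fold change of the genes was 0.40 in the meristem, -0.54 in the elongation zone and 0.25 in the differentiation zone. For all genes tested it was -0.039, 0.0075 and 0.0066. The *dgt* and WT ranges of TPM did not overlap for 6 of the 10 in the meristem, where that held for 41.5% of all tested genes. They did not overlap for 5 in the elongation zone (background 49.9%) and 5 in the differentiation zone (background 43.5%).

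**Figure D2:**
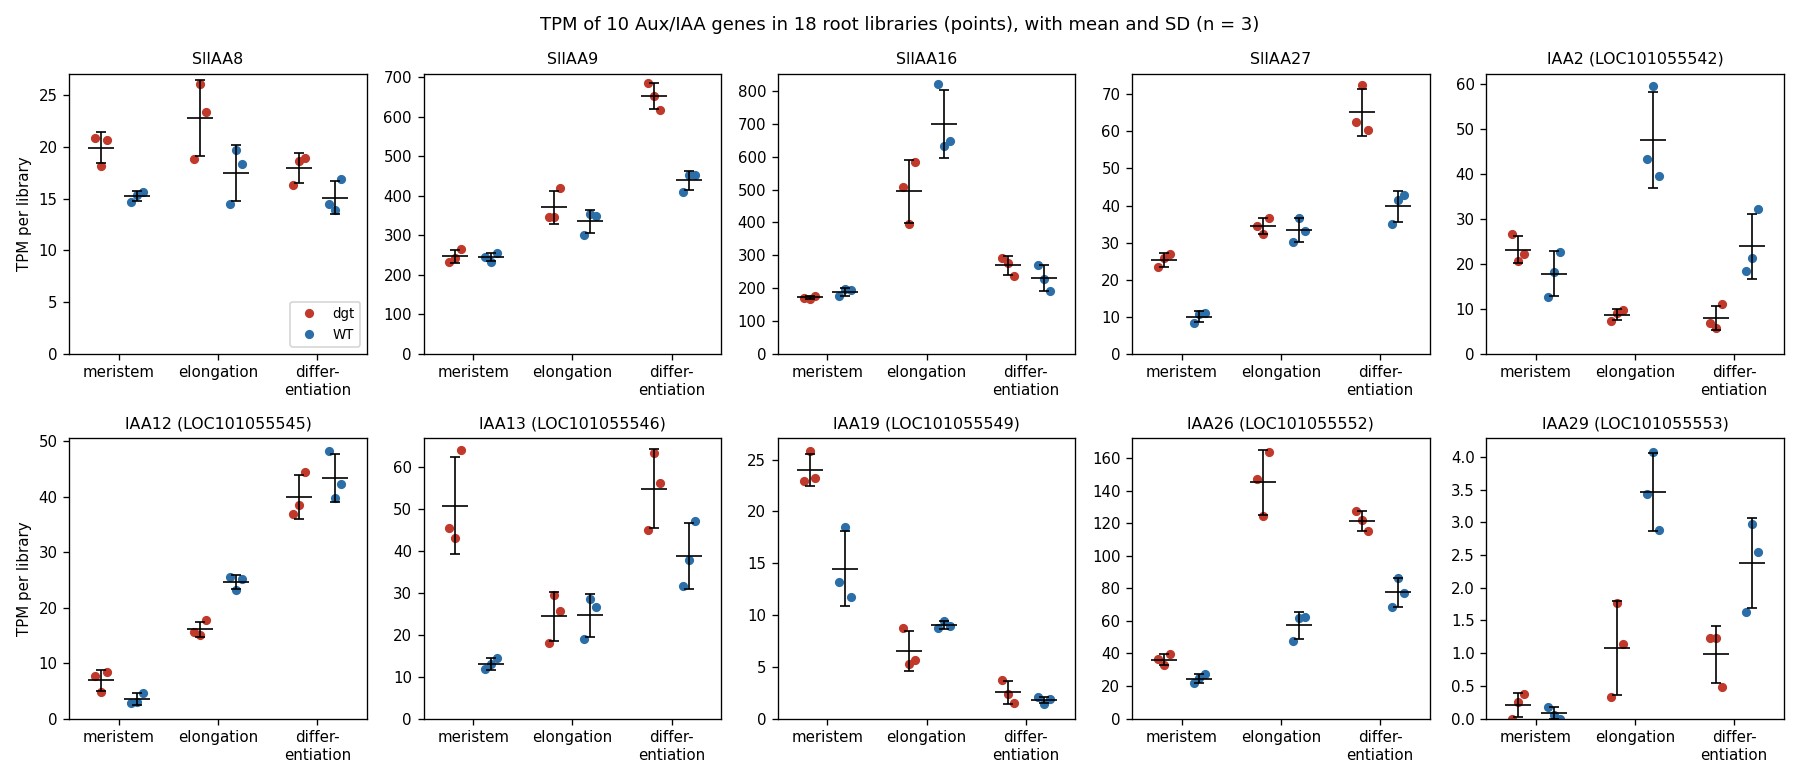
TPM of each gene in each library (points) by zone, *dgt* in red left of WT in blue, with mean and SD (bars, n = 3); each panel has its own y axis starting at 0. IAA2 sits at 7.37 to 9.72 TPM in the *dgt* elongation zone and 39.7 to 59.7 TPM in WT, and IAA13 at 43.1 to 64.1 TPM in the *dgt* meristem and 11.8 to 14.4 TPM in WT.

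**Figure D3:**
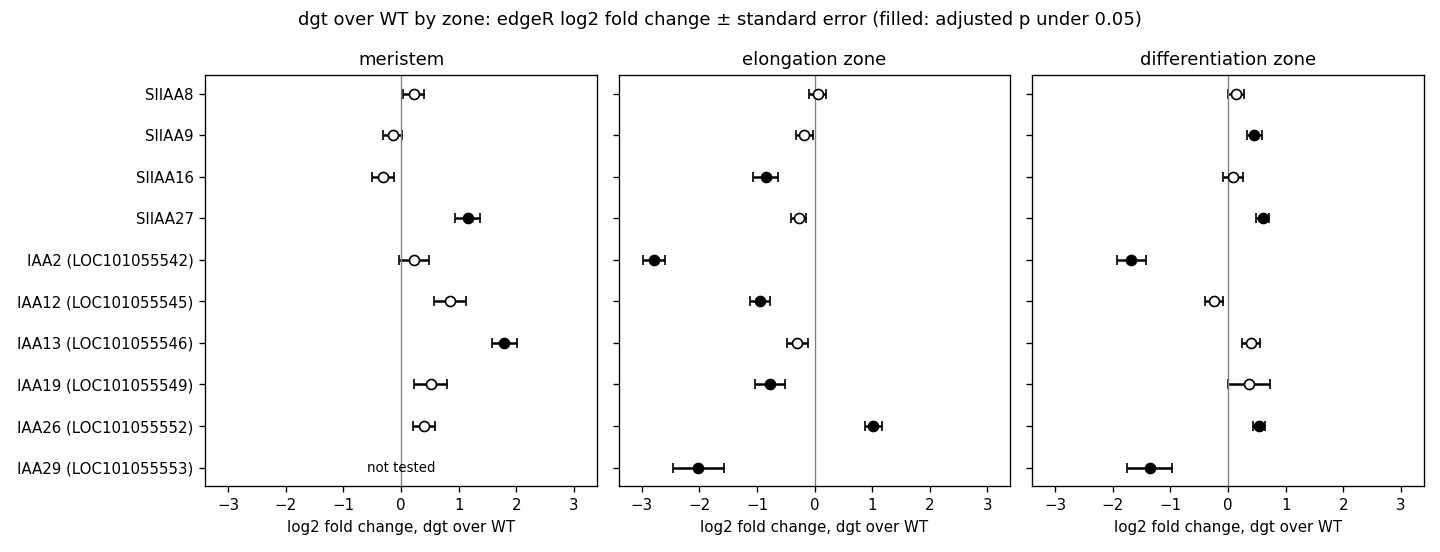
Log2 fold change of *dgt* over WT from edgeR (x axis) with its standard error for each gene and zone; filled points had an adjusted p under 0.05. The lowest point is IAA2 in the elongation zone at -2.79 and the highest is IAA13 in the meristem at 1.79; IAA29 was not tested in the meristem.

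IAA2 had the largest change of the 10 genes. In Arabidopsis the promoter of the gene of this name is widely used as a reporter of auxin response in the root tip. IAA2 had 7.37, 9.02 and 9.72 TPM in the *dgt* elongation zone, against 43.4, 59.7 and 39.7 TPM in the WT elongation zone. The groups were far apart, with every *dgt* library below 10 TPM and every WT library above 39 TPM. The log2 fold change was -2.79 (SE 0.19, edgeR adjusted p = 2.6e-06). IAA2 in the differentiation zone had 6.87, 5.84 and 11.0 TPM in *dgt* and 18.4, 21.3 and 32.1 TPM in WT, again without overlap, a log2 fold change of -1.68 (SE 0.26, edgeR adjusted p = 0.000646). The meristem was different. There IAA2 had 26.6, 20.7 and 22.2 TPM in *dgt* and 12.7, 18.2 and 22.6 TPM in WT, ranges that overlapped, with a log2 fold change of 0.23 (SE 0.26, edgeR adjusted p = 0.556). Both calls outside the meristem held under all 14 alternatives, with log2 fold changes between -2.93 and -2.31 (elongation zone) and between -2.00 and -1.47 (differentiation zone).

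IAA2 has 2 transcripts in the reference, of 606 and 759 bases, and their shares overlapped between the genotypes. The shorter one took 84.4%, 80.6% and 83.8% of the TPM of the gene in the *dgt* elongation zone and 83.3%, 78.4% and 75.9% in WT. Its share in the differentiation zone was 62.7%, 76.2% and 77.5% in *dgt* and 84.7%, 72.0% and 78.9% in WT. RSEM divides the reads of transcripts that overlap, so these shares are estimates.

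IAA13 showed the largest rise. In Arabidopsis, IAA12 (BODENLOS) and its close relative IAA13 hold back ARF5 during formation of the embryonic root. In the meristem IAA13 had 45.4, 43.1 and 64.1 TPM in *dgt* and 11.8, 13.0 and 14.4 TPM in WT. Every *dgt* library was well above every WT library, with a log2 fold change of 1.79 (SE 0.22, edgeR adjusted p = 0.00124) that lay between 1.63 and 1.99 under the 14 alternatives and held in each. In the elongation zone the genotypes overlapped, at 18.1, 29.5 and 25.8 TPM in *dgt* and 18.9, 28.7 and 26.6 TPM in WT (log2 fold change -0.30, SE 0.18, edgeR adjusted p = 0.246). IAA13 in the differentiation zone had 44.9, 63.5 and 56.3 TPM in *dgt* and 31.6, 37.8 and 47.1 TPM in WT, and the test was not passed (log2 fold change 0.40, SE 0.16, edgeR adjusted p = 0.084). It was passed there without WT differentiation replicate 3 (edgeR adjusted p = 0.0333) and without *dgt* differentiation replicate 1 (edgeR adjusted p = 0.0405). The 2 transcripts of IAA13, of 852 and 1236 bases, kept similar shares, the shorter with 48.6%, 60.4% and 67.1% in the *dgt* meristem and 60.7%, 52.5% and 66.8% in the WT meristem.

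IAA12, named after the other gene of that Arabidopsis pair, did not follow IAA13. It had 15.6, 15.2 and 17.7 TPM in the *dgt* elongation zone and 25.6, 23.2 and 25.2 TPM in WT. The groups did not overlap, and the log2 fold change of -0.95 (SE 0.17, edgeR adjusted p = 0.00161) held under all 14 alternatives. In the meristem IAA12 had 7.59, 4.77 and 8.38 TPM in *dgt* and 2.77, 3.04 and 4.69 TPM in WT. Here the *dgt* libraries were higher, with a log2 fold change of 0.85 (SE 0.28, edgeR adjusted p = 0.0649) that passed the test only with upper quartile scaling and without WT meristem replicate 2 (0.92, edgeR adjusted p = 0.0164). The ranges of the differentiation zone overlapped, at 37.0, 38.5 and 44.5 TPM in *dgt* and 48.3, 39.8 and 42.3 TPM in WT (log2 fold change -0.25, SE 0.16, edgeR adjusted p = 0.27).

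*SlIAA27* rose at both ends of the sampled root. Silencing of this gene in tomato is known to alter auxin sensitivity and root development. In the meristem it had 23.3, 25.8 and 26.9 TPM in *dgt* and 8.36, 10.8 and 11.0 TPM in WT, a log2 fold change of 1.16 (SE 0.22, edgeR adjusted p = 0.00833). Farther from the tip, in the differentiation zone, it had 62.7, 72.4 and 60.3 TPM in *dgt* and 34.9, 41.6 and 42.8 TPM in WT, a log2 fold change of 0.60 (SE 0.12, edgeR adjusted p = 0.00268). The genotypes did not overlap in either zone, and both calls held under all 14 alternatives. Between these zones, in the elongation zone, *SlIAA27* had 34.5, 32.3 and 36.7 TPM in *dgt* and 30.3, 36.6 and 33.1 TPM in WT. Those ranges overlapped, and the log2 fold change of -0.28 (SE 0.13, edgeR adjusted p = 0.15) turned to 0.052 on the scale of log2 TPM.

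IAA26 rose outside the meristem. It had 147, 124 and 164 TPM in the *dgt* elongation zone and 47.8, 61.7 and 62.5 TPM in WT, without overlap. The log2 fold change was 1.02 (SE 0.15, edgeR adjusted p = 0.000369). Its differentiation zone values were 127, 122 and 115 TPM in *dgt* and 68.6, 86.4 and 77.4 TPM in WT, without overlap, a log2 fold change of 0.53 (SE 0.11, edgeR adjusted p = 0.00364). Both calls held under all 14 alternatives. In the meristem IAA26 had 36.6, 32.6 and 39.4 TPM in *dgt* and 21.6, 24.7 and 27.2 TPM in WT. These ranges did not overlap either, but the test was not passed (log2 fold change 0.40, SE 0.19, edgeR adjusted p = 0.173) except without WT meristem replicate 2 (0.58, edgeR adjusted p = 0.0025) and on the log2 TPM scale.

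IAA29 was close to the limit of detection. In the elongation zone it had 0.33, 1.76 and 1.14 TPM in *dgt* (3, 15 and 10 counts) and 3.43, 4.08 and 2.88 TPM in WT (30, 37 and 26 counts). All *dgt* libraries were lower, with a log2 fold change of -2.02 (SE 0.45, edgeR adjusted p = 0.00641) that held under all 14 alternatives, and a ratio of summed counts per library total of 0.295 (exact 95% interval 0.186 to 0.454, for counting error only). In the differentiation zone it had 1.23, 1.23 and 0.48 TPM in *dgt* (10, 11 and 4 counts) and 1.63, 2.97 and 2.54 TPM in WT (14, 24 and 23 counts). The log2 fold change was -1.36 (SE 0.40, edgeR adjusted p = 0.0246). That call was lost without WT differentiation replicate 2 or 3 (edgeR adjusted p = 0.0843 and 0.0525) and without *dgt* differentiation replicate 1 or 3 (edgeR adjusted p = 0.0547 and 0.0848), and with DESeq2 (adjusted p = 0.0521). In the meristem IAA29 had 0, 3 and 4 counts in *dgt* and 2, 1 and 0 counts in WT, and it was not tested there. The ratio of these summed counts was 2.53 with an exact 95% interval from 0.579 to 15.2, so a difference was not detectable at this depth.

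*SlIAA9* rose in the differentiation zone, where it was most abundant. It is the gene of the *entire* mutant, whose loss gives simple leaves and fruit set without pollination. It had 686, 654 and 618 TPM in the *dgt* differentiation zone and 410, 453 and 454 TPM in WT. The groups did not overlap and the log2 fold change was 0.45 (SE 0.13, edgeR adjusted p = 0.0219). The call was lost without WT differentiation replicate 2 or 3 (edgeR adjusted p = 0.0904 and 0.0534) and without *dgt* differentiation replicate 1 or 2 (edgeR adjusted p = 0.0934 and 0.076). In the meristem *SlIAA9* had 233, 241 and 264 TPM in *dgt* and 245, 233 and 254 TPM in WT, and in the elongation zone 347, 347 and 419 TPM in *dgt* and 302, 355 and 348 TPM in WT. Both pairs of ranges overlapped, with log2 fold changes of -0.15 (95% interval -0.55 to 0.25) and -0.18 (95% interval -0.50 to 0.14) that turned positive on the log2 TPM scale.

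*SlIAA16* fell in the elongation zone, the zone where it was most abundant. The Arabidopsis gene of this name gives auxin resistance when its protein is stabilised. *SlIAA16* had 508, 394 and 584 TPM in the *dgt* elongation zone and 821, 632 and 649 TPM in WT. The highest *dgt* library was below the lowest WT library, with a log2 fold change of -0.85 (SE 0.22, edgeR adjusted p = 0.0141). Without *dgt* elongation replicate 2 the call was lost (-0.70, edgeR adjusted p = 0.0543), and it was lost with limma on log2 TPM. The genotypes did not pass the test in the meristem, with 171, 166 and 177 TPM in *dgt* and 175, 197 and 195 TPM in WT (log2 fold change -0.32, SE 0.19, edgeR adjusted p = 0.266). The differentiation zone had 293, 278 and 236 TPM in *dgt* and 270, 228 and 192 TPM in WT, ranges that overlapped (log2 fold change 0.084, SE 0.18, edgeR adjusted p = 0.76).

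IAA19 had its highest mean TPM in the meristem in both genotypes. In WT, its call against the elongation zone was lost without WT meristem replicate 2 or WT elongation replicate 2 or 3. The Arabidopsis gene of this name (MSG2) acts in tropic bending and lateral root formation together with ARF7. IAA19 had 23.0, 25.8 and 23.2 TPM in the *dgt* meristem and 13.2, 18.6 and 11.7 TPM in the WT meristem. The ranges did not overlap, yet the log2 fold change of 0.51 (SE 0.29, edgeR adjusted p = 0.238) did not pass. WT meristem replicate 2 had the highest WT value, and without it the log2 fold change was 0.95 (edgeR adjusted p = 0.000142). The difference also passed with limma on log2 TPM. In the elongation zone IAA19 had 8.76, 5.25 and 5.62 TPM in *dgt* and 8.70, 9.41 and 8.93 TPM in WT, a log2 fold change of -0.77 (SE 0.25, edgeR adjusted p = 0.0415). This call was the least stable of the zone: the edgeR adjusted p was 0.0907, 0.0705 and 0.0815 without WT elongation replicate 1, 2 and 3, and 0.123 and 0.126 without *dgt* elongation replicate 2 and 3, and the call was lost with upper quartile scaling and on log2 TPM. IAA19 was low in the differentiation zone of both genotypes, with 3.70, 2.39 and 1.51 TPM in *dgt* and 2.05, 1.45 and 1.84 TPM in WT (log2 fold change 0.36, SE 0.37, edgeR adjusted p = 0.49).

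*SlIAA8* was the flattest of the genes. It had 20.9, 18.2 and 20.7 TPM in the *dgt* meristem and 14.7, 15.4 and 15.7 TPM in WT. In the elongation zone it had 18.9, 26.2 and 23.4 TPM in *dgt* and 14.5, 19.7 and 18.3 TPM in WT, and in the differentiation zone 16.3, 18.7 and 19.0 TPM in *dgt* and 14.5, 13.9 and 16.9 TPM in WT. The ranges overlapped in the elongation and differentiation zones but not in the meristem. The log2 fold changes were 0.22 (95% interval -0.20 to 0.63), 0.056 (95% interval -0.28 to 0.39) and 0.14 (95% interval -0.18 to 0.45), and none passed. Without WT meristem replicate 2 the meristem difference passed (0.40, edgeR adjusted p = 0.011).

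WT meristem replicate 2 therefore weighed on the meristem as a whole. Without it 6 of the genes passed there, *SlIAA8*, *SlIAA27*, IAA12, IAA13, IAA19 and IAA26, all higher in *dgt*. The share of all tested genes called, in either direction, was then 52.7%, against 22.8% with it. The biological coefficient of variation was 0.0969 among *dgt* meristem libraries and 0.31 among WT meristem libraries. Among the differentiation zone libraries, the 7 cell division genes summed to 93.8 to 105 TPM in *dgt* and 127 to 159 TPM in WT, and the 8 uptake and peroxidase genes to 1742 to 1822 TPM in *dgt* and 2366 to 2776 TPM in WT. The 19 wall genes summed there to 748 to 836 TPM in *dgt* and 997 to 1246 TPM in WT. In the elongation zone, the ranges of the wall genes overlapped (1708 to 2054 TPM in *dgt* and 1854 to 1902 TPM in WT), as did those of the cell division genes (87.2 to 116 TPM in *dgt* and 82.4 to 88.2 TPM in WT). The uptake and peroxidase genes were at 979 to 1070 TPM in *dgt* and 1099 to 1296 TPM in WT, without overlap. In the WT differentiation libraries 1 of the 19 wall genes and 1 of the 8 uptake genes were at 0. In the meristem, the cell division genes summed to 499 to 596 TPM in *dgt* and 656 to 745 TPM in WT, and the uptake and peroxidase genes to 389 to 439 TPM in *dgt* and 445 to 476 TPM in WT. The wall genes overlapped there, at 580 to 687 TPM in *dgt* and 544 to 585 TPM in WT. The part of these shifts in the *Aux/IAA* values was not tested.

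The second comparison asked how the genes changed along the root within a genotype. In *dgt*, 4 genes rose and 3 fell in the elongation zone against the meristem, where 39.6% of all tested genes rose and 39.5% fell. In WT, 7 rose and 1 fell over the same step (background 34.5% and 33.5%). In the differentiation zone against the elongation zone, 4 rose and 4 fell in *dgt* (background 31.0% and 32.3%), and 1 rose and 3 fell in WT (background 30.2% and 20.2%). In the differentiation zone against the meristem, a comparison added after seeing the data, 4 rose and 4 fell in *dgt* (background 38.2% and 44.7%), and 6 rose and 1 fell in WT (background 37.6% and 34.1%). The median log2 fold change over all genes tested was 0.22 for the WT step into the differentiation zone and -0.16 for the *dgt* differentiation zone against the meristem. On the log2(TPM + 0.1) scale the median gene was 0.42 and 0.20 higher over the 2 successive steps in *dgt*, and 0.13 and 0.41 in WT.

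**Figure D4:**
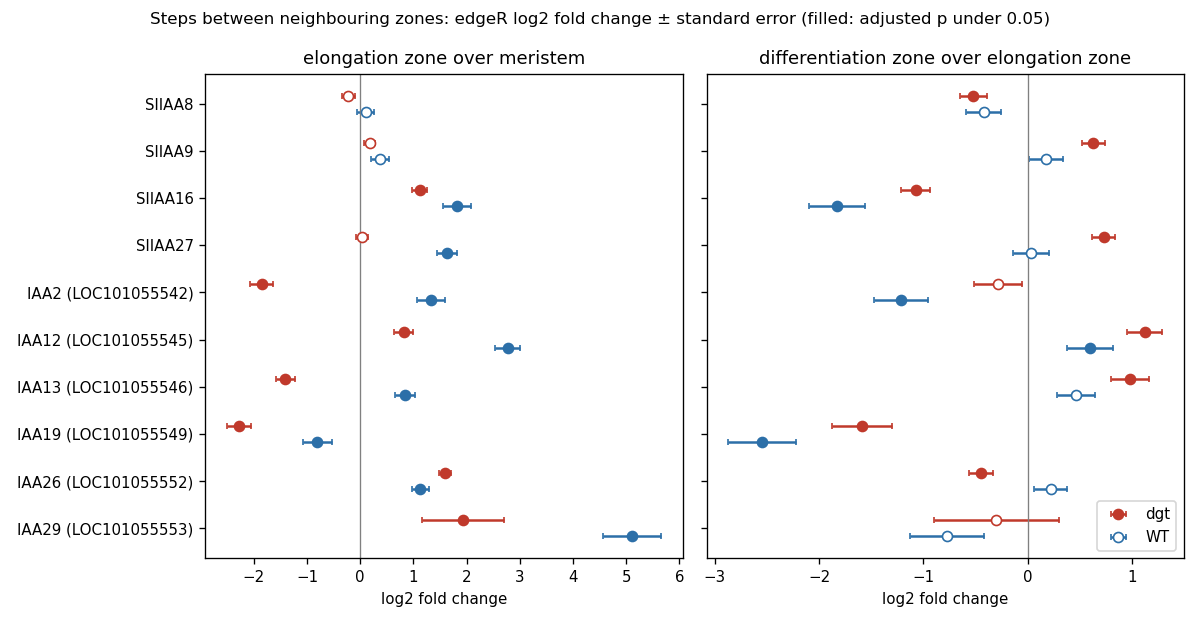
Log2 fold change with standard error from edgeR (x axis) for the step from meristem to elongation zone (left) and from elongation to differentiation zone (right), *dgt* in red above WT in blue; filled points had an adjusted p under 0.05. IAA2 lies at -1.85 in *dgt* and 1.33 in WT in the left panel, and IAA13 at -1.41 in *dgt* and 0.84 in WT; the WT point of IAA29 there rests on 3 counts in the meristem.

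For IAA2 and IAA13 the step into the elongation zone ran in opposite directions in the genotypes. IAA2 averaged 23.1 ± 3.05, 8.70 ± 1.21 and 7.90 ± 2.72 TPM in the *dgt* meristem, elongation and differentiation zones and 17.8 ± 4.94, 47.6 ± 10.6 and 23.9 ± 7.24 TPM in WT (SD, n = 3 each). It fell in *dgt* by 1.85 (SE 0.21, edgeR adjusted p = 1.89e-06) and rose in WT by 1.33 (SE 0.26, edgeR adjusted p = 0.000885) on the log2 scale. Its highest zone was thus the meristem in *dgt* and the elongation zone in WT. The *dgt* elongation and differentiation zones did not pass the test against each other (edgeR adjusted p = 0.301), although they did without *dgt* differentiation replicate 3 (edgeR adjusted p = 0.0229), and neither did the WT differentiation zone against the WT meristem (edgeR adjusted p = 0.715).

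IAA13 averaged 50.9 ± 11.5, 24.5 ± 5.84 and 54.9 ± 9.37 TPM along the *dgt* root and 13.0 ± 1.33, 24.7 ± 5.13 and 38.8 ± 7.81 TPM along the WT root (SD, n = 3 each). It dipped in the *dgt* elongation zone, with a log2 fold change of -1.41 against the meristem (SE 0.18, edgeR adjusted p = 6.37e-06) and 0.98 for the following step (SE 0.18, edgeR adjusted p = 0.000339). In WT it rose by 0.84 over the first step (SE 0.18, edgeR adjusted p = 0.00186), and the second step was not passed (0.46, edgeR adjusted p = 0.0538). The order of the *dgt* differentiation zone and meristem was not settled. The log2 fold change was -0.43 (edgeR adjusted p = 0.0341) and turned to 0.12 on the log2 TPM scale, and the call was lost without *dgt* differentiation replicate 1 (edgeR adjusted p = 0.157), *dgt* elongation replicate 1 (edgeR adjusted p = 0.111) or *dgt* meristem replicate 3 (edgeR adjusted p = 0.172).

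*SlIAA27* and IAA12 climbed away from the tip. *SlIAA27* averaged 25.3 ± 1.81, 34.5 ± 2.19 and 65.1 ± 6.40 TPM along the *dgt* root and 10.0 ± 1.45, 33.3 ± 3.18 and 39.8 ± 4.27 TPM along the WT root (SD, n = 3 each). The step that passed was the second in *dgt* (log2 fold change 0.73, SE 0.11, edgeR adjusted p = 5.37e-05) and the first in WT (1.63, SE 0.18, edgeR adjusted p = 1.41e-05). The first step in *dgt* was 0.033 and passed on log2 TPM, at 0.44. IAA12 rose over both steps in *dgt*, by 0.82 (edgeR adjusted p = 0.00088) and 1.12 (edgeR adjusted p = 5.19e-05). In WT it rose by 2.77 over the first (edgeR adjusted p = 2.16e-06). The second WT step, 0.60 (edgeR adjusted p = 0.0411), was lost with the replicate block (edgeR adjusted p = 0.0633), and its adjusted p was 0.0593 to 0.159 without WT differentiation replicate 1 or 3, any WT elongation replicate, or WT meristem replicate 1 or 2.

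*SlIAA16* and IAA26 were lowest in the meristem. *SlIAA16* peaked in the elongation zone of both genotypes, with a rise of 1.12 in *dgt* (SE 0.14, edgeR adjusted p = 3.77e-06) and 1.82 in WT (SE 0.27, edgeR adjusted p = 0.00011) over the meristem. It then fell by 1.08 in *dgt* (edgeR adjusted p = 1.13e-05) and 1.83 in WT (edgeR adjusted p = 0.000259). Its differentiation zone and meristem did not pass the test against each other in *dgt* (edgeR adjusted p = 0.775) or in WT (edgeR adjusted p = 0.98), but on log2 TPM it was 0.64 higher in *dgt* and passed. IAA26 averaged 36.2 ± 3.42, 145 ± 19.8 and 121 ± 5.96 TPM along the *dgt* root and 24.5 ± 2.83, 57.3 ± 8.27 and 77.4 ± 8.93 TPM along the WT root (SD, n = 3 each). It rose over the first step in *dgt* by 1.59 (edgeR adjusted p = 1.69e-08) and in WT by 1.13 (edgeR adjusted p = 9.43e-05). The second step was a fall of 0.45 in *dgt* (edgeR adjusted p = 0.00326), lost with limma on log2 TPM, and did not pass in WT (0.22, edgeR adjusted p = 0.28).

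IAA19 was the only one of the 10 genes to fall over both steps in both genotypes. Over the first step it fell by 2.27 in *dgt* (SE 0.23, edgeR adjusted p = 4.81e-07) and 0.81 in WT (SE 0.28, edgeR adjusted p = 0.0226). The WT fall was lost without WT meristem replicate 2 (edgeR adjusted p = 0.298) and without WT elongation replicate 2 or 3 (edgeR adjusted p = 0.0683 and 0.0728). Over the second step it fell by 1.59 in *dgt* (edgeR adjusted p = 0.000254) and 2.54 in WT (edgeR adjusted p = 0.000103). RefSeq places IAA19 on chromosome 3 with 1 annotated gene between it and IAA15 (the IAA8 of the files). *SlIAA27* follows 11 annotated genes after IAA15, and IAA26 59 genes after *SlIAA27*, on the same chromosome. IAA19 fell along the root, while *SlIAA27* and IAA26 were lowest in the meristem.

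*SlIAA9* rose over the second step in *dgt* by 0.62 (SE 0.11, edgeR adjusted p = 0.000227), and its other steps did not pass, at 0.18 for the first in *dgt* and 0.37 and 0.17 in WT. The first step passed without *dgt* elongation replicate 1 (edgeR adjusted p = 0.027) and, in WT, without WT meristem replicate 2 (edgeR adjusted p = 0.00382). It also passed in both genotypes with DESeq2 and on log2 TPM (0.59 in *dgt* and 0.45 in WT with pseudocount 0.1), and the second WT step passed on log2 TPM, at 0.39. The WT differentiation zone was 0.54 above the WT meristem (edgeR adjusted p = 0.0117), a call lost without WT elongation replicate 1 or WT meristem replicate 1 (edgeR adjusted p = 0.217 and 0.406), and with DESeq2 size factors, upper quartile scaling and no low-count filter. *SlIAA8* fell over the second step in *dgt* by 0.52 (SE 0.13, edgeR adjusted p = 0.00285). In WT the same step was not passed (-0.42, edgeR adjusted p = 0.0549), but it was without WT elongation replicate 1, WT meristem replicate 1 or WT meristem replicate 2 (edgeR adjusted p = 0.0406, 0.0247 and 0.00252). The first step of *SlIAA8* was -0.22 in *dgt* and 0.10 in WT. It passed without *dgt* elongation replicate 2 (edgeR adjusted p = 0.0381) and without WT meristem replicate 2 (edgeR adjusted p = 0.0301). IAA29 had 28 summed counts in the *dgt* elongation zone and 7 in the *dgt* meristem, a ratio of 4.36 per library total (exact 95% interval 1.86 to 11.8). Its edgeR adjusted p of 0.0326 was lost without *dgt* elongation replicate 2 or 3 (0.148 and 0.0569) and without *dgt* meristem replicate 1 or 2 (0.115 and 0.0585). In WT the summed counts were 93 and 3, a ratio of 37.5 (exact 95% interval 12.4 to 185). Both intervals cover counting error only.

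The third comparison tested whether the effect of *dgt* itself differed between zones, over all 18 libraries. It did for 5 of the 10 genes, *SlIAA9*, *SlIAA27*, IAA2, IAA12 and IAA13 (edgeR adjusted p = 0.0494, 0.00106, 5.15e-05, 0.0017 and 0.0002), where 20.0% of the 21969 genes tested did. The last 4 passed under all 26 alternatives. *SlIAA9* did so only by a narrow margin, and its call was lost without any one library except the 3 WT meristem libraries and *dgt* elongation replicate 3, with an edgeR adjusted p of up to 0.107.

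The next contrast set the elongation zone against the meristem. The log2 fold change of *dgt* over WT was lower in the elongation zone than in the meristem for 5 genes, where 7.53% of all tested genes were lower and 7.68% higher. The difference was -2.99 for IAA2 (SE 0.37, edgeR adjusted p = 2.84e-05), -2.06 for IAA13 (SE 0.29, edgeR adjusted p = 0.000109), -1.77 for IAA12 (SE 0.31, edgeR adjusted p = 0.000866) and -1.41 for *SlIAA27* (SE 0.24, edgeR adjusted p = 0.000564). These 4 held under all 26 alternatives. For IAA19 it was -1.25 (SE 0.42, edgeR adjusted p = 0.0479), a call lost under 13 of them, with an edgeR adjusted p of up to 0.116. Of the fits without 1 library, it held only without WT differentiation replicate 1, WT elongation replicate 2, WT meristem replicate 2, *dgt* differentiation replicate 1 or 3, or *dgt* elongation replicate 1. IAA26 had the opposite sign, 0.65, and did not pass (SE 0.22, edgeR adjusted p = 0.0529). It passed under 5 of the 26 alternatives, on log2 TPM (3 fits) and without WT meristem replicate 1 (0.80, edgeR adjusted p = 0.0199) or *dgt* elongation replicate 2 (0.77, edgeR adjusted p = 0.0294). From the elongation to the differentiation zone, *SlIAA27* alone passed, with a difference of 0.87 (SE 0.23, edgeR adjusted p = 0.0311) where 2.56% of all tested genes were higher and 3.42% lower, and this was lost under 9 of the 26 alternatives, with an edgeR adjusted p of up to 0.0894. Each of those 9 left out 1 library: any WT differentiation or *dgt* elongation replicate, WT elongation replicate 1 or 3, or *dgt* differentiation replicate 2. The elongation zone libraries are shared by both of these contrasts.

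Other genes of the auxin pathway were taken by symbol, as the files spell it. Of all tested genes, 14.5%, 14.9% and 16.1% rose in the *dgt* meristem, elongation and differentiation zones. The shares that fell were 8.31%, 12.2% and 13.4%. Of 7 tested genes among 8 others named IAA, 4 rose in the *dgt* meristem, 2 rose and 2 fell in the *dgt* elongation zone, and 3 rose in the *dgt* differentiation zone. Of these, IAA10, which RefSeq calls IAA17, rose most in the 3 zones, by 2.43, 0.88 and 2.25 on the log2 scale (edgeR adjusted p = 0.000108, 0.0135 and 0.000151). IAA21 had the largest fall in the elongation zone (-2.30, edgeR adjusted p = 0.000653). Of 15 tested ARF genes, whose products bind the promoters that Aux/IAA proteins repress, 3 rose in the meristem, 10 in the elongation zone and 10 in the differentiation zone, and those that passed were all higher in *dgt*. The largest rises were those of ARF1 in the meristem (2.40, edgeR adjusted p = 7.97e-05) and of ARF5 in the elongation and differentiation zones (3.51 and 2.28, edgeR adjusted p = 1.18e-05 and 2.24e-06). Of 6 tested PIN genes, which encode auxin efflux carriers, 4 rose and 1 fell in the meristem, 1 rose and 3 fell in the elongation zone, and 1 rose and 1 fell in the differentiation zone. PIN3 rose most in the meristem (2.27, edgeR adjusted p = 0.000482) and PIN5 fell most in the other 2 zones (edgeR adjusted p = 0.000122 and 0.000136). PIN5 had 2 summed counts in the *dgt* elongation zone and 65 in WT, a ratio of 0.0301 per library total (exact 95% interval 0.00357 to 0.113), and 19 in the *dgt* differentiation zone and 355 in WT, a ratio of 0.0535 (exact 95% interval 0.0319 to 0.0849), both for counting error only. The influx carrier gene *SlLAX1* passed in no zone, with log2 fold changes of 0.15, 0.25 and 0.11. No TIR1/AFB, GH3 or SAUR symbol was found by the search, and these groups were not analysed here.

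The genes with the most similar profiles were sought among 19675 genes with a mean of at least 1 TPM. The measure was the root-mean-square (RMS) difference of centred log2(TPM + 0.1) over the 18 libraries. All genes were read in the same libraries and share their depth and zone composition. The closest to *SlIAA9* was EBF2, named as an F-box gene of ethylene signalling (RMS difference 0.14). The closest to *SlIAA8* was LOC101260632 (0.13), to IAA26 LOC101258773 (0.18), to *SlIAA16* LOC101264073 (0.21), to *SlIAA27* LOC101266892 (0.22), to IAA12 LOC101259548 (0.29), to IAA13 LOC101262106 (0.35) and to IAA19 LOC101264756 (0.43). IAA2 had no close match. The nearest gene was HSP90, named as a chaperone gene, at an RMS difference of 0.56. IAA29 had none either, with LOC101263014 at 0.74. With 0 to 37 counts of IAA29 per library, counting error enters its distances, and the size of that part was not tested. Ranked by the 6 group means instead, EBF2 was only at rank 11 for *SlIAA9* and LOC101263014 at rank 23 for IAA29. HSP90 stayed at rank 1, LOC101260632 was at rank 2, and the other nearest genes were at ranks 3 to 5. Within the 10 genes the most alike were *SlIAA9* and *SlIAA27* (0.48), but many other genes were closer to each. *SlIAA27* ranked 2909 among genes for *SlIAA9*, and *SlIAA9* ranked 617 for *SlIAA27*.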

How the data were processed

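Base calls were made with CASAVA 1.8.2, per the labels. The authors aligned single-end reads to transcripts of the NCBI tomato genome with RSEM 1.3.1 and deposited, for each gene and transcript, the expected count (not normalized), the TPM (scaled by length and library total) and, per the file headers, the percent of the TPM of a gene given to each transcript. The authors' EBSeq 1.26.0 tables of posterior probabilities, fold changes and group means were not used.

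Expected counts were rounded and tested with edgeR 4.0.16 (R 4.3.3; filterByExpr with minimum count 10 and total 15, TMM, glmQLFit, glmQLFTest), on 6 libraries for *dgt* against WT, 9 for zones within a genotype and 18 for the interaction. Standard errors are the fold change divided by the root of F. DESeq2 1.42.0, limma 3.58.1, other scalings, no filter, a replicate block and leaving out each library were alternatives. The procedures were also run on simulated counts with the same spread in every group, which does not cover the unequal spread of the meristem groups. All 10 genes were named. For auxin lists, taken by symbol, the largest rise and fall were named. The nearest profile of each gene was named too. The members and lists were chosen with earlier results of these data known.

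The fits take their error from the spread of 3 replicates and from counting, and intervals on count ratios cover counting error only. The replicate numbers were checked as pairs. Between WT differentiation and elongation, every same-numbered pair deviated together (correlations 0.41, 0.158 and 0.14), but WT differentiation replicate 3 reached 0.281 with another number. Between *dgt* and WT differentiation the correlations were also positive but smaller (0.04, 0.086 and 0.113). RefSeq names (assembly SLM_r2.1) were matched by accession for 24925 genes, and no coordinates or sequences are given. Python 3.11.15 did the rest.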

Additional observations from a re-analysis of the deposited data

Results flagged for a closer look

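The effect of *dgt* differed between the zones, by the genotype-by-zone interaction in edgeR, for 5 of the 10 genes. It did for 20.0% of the 21969 genes tested. The edgeR adjusted p was 5.15e-05 for IAA2 (LOC101055542), with log2 fold changes of *dgt* over WT of 0.23, -2.79 and -1.68 in meristem, elongation and differentiation zone. It was 0.0002 for IAA13 (LOC101055546), with 1.79, -0.30 and 0.40. It was 0.00106 for *SlIAA27*, with 1.16, -0.28 and 0.60. It was 0.0017 for IAA12 (LOC101055545), with 0.85, -0.95 and -0.25. For *SlIAA9* it was 0.0494, with -0.15, -0.18 and 0.45, and this call was lost under 18 of 26 alternatives.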

How the results depend on the processing

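Of the calls in the 3 zones, those of IAA2, IAA12, IAA26 and IAA29 in the elongation zone, of *SlIAA27* and IAA13 in the meristem, and of *SlIAA27*, IAA2 and IAA26 in the differentiation zone held under all 14 alternatives. With limma on log2 TPM, with either pseudocount and without a filter, 4 genes passed in the meristem, where 16.7% to 20.7% of all tested genes passed. With pseudocounts 0.1 and 1, 7 passed between the WT differentiation and elongation zones (50.4% and 52.3% of all tested genes). With pseudocount 1, 8 passed for the interaction (20.9%). For the change of the effect between the elongation and differentiation zones 2 passed with DESeq2 (8.14%) and with pseudocount 0.1 (6.72%), and 3 with pseudocount 1 (8.11%). Without 1 library, the number passing was 2 to 6 in the meristem, 4 to 6 in the elongation zone and 3 to 5 in the differentiation zone for *dgt* against WT, where the share of all tested genes ran from 9.93% to 52.7%, 19.6% to 26.2% and 19.7% to 29.3%. The meristem maxima of 6 genes and 52.7% both came without WT meristem replicate 2. The number was 6 to 8, 8 to 9 and 7 to 9 in *dgt* for the elongation zone against the meristem, the differentiation against the elongation zone and the differentiation zone against the meristem, and 7 to 9, 3 to 5 and 7 to 7 in WT. The shares were 74.8% to 78.6%, 57.3% to 62.3% and 79.4% to 83.6% in *dgt* and 62.0% to 71.6%, 39.9% to 59.1% and 65.9% to 74.8% in WT. The number was 4 to 8 for the interaction (15.1% to 37.0%), 4 to 5 for its first contrast (10.2% to 30.9%) and 0 to 4 for its second (3.85% to 9.62%).

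With the replicate block, 2, 6 and 6 genes passed for *dgt* against WT in the meristem, elongation and differentiation zones. Of all tested genes, 2999 of 19926, 6010 of 20079 and 6302 of 20547 did. For the same 3 zone comparisons 7, 8 and 8 passed in *dgt*, where 16930, 13333 and 17815 of 21665 tested genes did. In WT 8, 3 and 7 passed, where 13595, 9690 and 14360 of 20617 did. For the interaction and its contrasts 4, 5 and 1 passed, where 3988, 3032 and 1206 of 21969 did. The block changed the calls of IAA13 in the differentiation zone, IAA12 between the WT differentiation and elongation zones, and *SlIAA9* for the interaction. Correlations of same-numbered *dgt* and WT libraries lay between -0.097 and 0.203, and the labels do not say whether the numbers mark pairs.

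Signs turned in results that had not passed, apart from IAA13 between the *dgt* differentiation zone and meristem. On log2 TPM (pseudocount 0.1, pseudocount 1, no filter) the values were 0.1185, 0.1163 and 0.1185 there, 0.0109, 0.0109 and 0.0109 for *SlIAA9* in the meristem, 0.1449, 0.1446 and 0.1449 for *SlIAA9* and 0.0518, 0.0504 and 0.0518 for *SlIAA27* in the elongation zone. They were 0.273, 0.2719 and 0.273 for *SlIAA16* between the WT differentiation zone and meristem, 0.1833, 0.1763 and 0.1833 for *SlIAA8* between the *dgt* elongation zone and meristem, 0.134, 0.1337 and 0.134 for *SlIAA9* in the first interaction contrast, and -0.1264, -0.123 and -0.1264 for *SlIAA8* in the second. Without a filter IAA29 was 0.0163 between the *dgt* differentiation and elongation zones. With upper quartile scaling *SlIAA27* was -0.0396 between the *dgt* elongation zone and meristem, *SlIAA8* -0.0617 over that step in WT, and IAA2 -0.0396 between the WT differentiation zone and meristem. Without the count filter IAA2 was -0.1404 there, *SlIAA9* -0.0031 and *SlIAA27* -0.1439 between the WT differentiation and elongation zones, where *SlIAA27* was -0.0828 with DESeq2 and -0.0819 with its size factors.

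Without 1 library, the values ran from -0.0179 to 0.4548 for IAA2 in the meristem, -0.0368 to 0.1481 for *SlIAA8* in the elongation zone and -0.074 to 0.3164 for *SlIAA16* in the differentiation zone. Along the *dgt* root they ran from -0.318 to 0.0119 for *SlIAA8* and -0.0281 to 0.1421 for *SlIAA27* over the first step, and -0.7004 to 0.223 for IAA29 over the second. Along the WT root they ran from -0.0776 to 0.4086 for *SlIAA8* over the first step, -0.0102 to 0.1941 for *SlIAA9* and -0.1508 to 0.037 for *SlIAA27* over the second, and -0.3937 to 0.1545 for *SlIAA16* and -0.3953 to 0.2755 for IAA2 between the differentiation zone and meristem. In the interaction contrasts they ran from -0.1642 to 0.0723 for *SlIAA9* (first) and -0.0203 to 0.1628 for *SlIAA8* (second). The cause was not tested. Depth limits IAA29 most, with 0 to 37 counts per library, and next IAA19 in the differentiation zone, with at least 14.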

Other observations

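Summed over the 10 genes, TPM was 587, 579 and 647 in the *dgt* meristem and 505, 534 and 556 in WT, without overlap. It was 1106, 984 and 1287 in the *dgt* elongation zone and 1315, 1230.0 and 1214 in WT, ranges that overlapped. In the differentiation zone it was 1279, 1256 and 1162 in *dgt* and 901, 926 and 909 in WT, without overlap, and *SlIAA9* made up 52.9% of the *dgt* sum of means and 48.1% of the WT sum. On the log2(TPM + 0.1) scale the median of all genes was itself 0.11, 0.31 and 0.12 higher in *dgt* in the meristem, elongation and differentiation zones. The range of levels within a genotype also differed between genes. From its lowest to its highest zone mean, IAA12 spanned 5.78-fold in *dgt* and 12.4-fold in WT, IAA19 9.48-fold in *dgt* and 8.13-fold in WT, and *SlIAA8* 1.27-fold in *dgt* and 1.16-fold in WT.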
